A study of Mus musculus with 24 samples.

Results

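The glutamate and GABA receptor subunit genes were 45 of the 24058 gene symbols in a count table of mouse hippocampal RNA. They were taken by symbol: the AMPA (Gria), kainate (Grik), delta (Grid), NMDA (Grin) and metabotropic (Grm) glutamate receptors, the GABA-A and rho subunits (Gabr with a letter code) and the GABA-B subunits (Gabbr). The rule used symbols and no measured value, but it was set with earlier results of these data known. Of the 45, 25 were glutamate receptor genes and 20 were GABA receptor genes.

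The study sequenced oligo(dT)-enriched RNA of hippocampal tissue in bulk from 24 mice of 6 groups, all carrying the P301S tau transgene of the PS19 tauopathy line, which the prion protein promoter drives. Under the title prefix LG72, the R47H-TREM2/+ mice were 5 of each sex, with 3 female and 2 male Trem2+/+ mice beside them. Under LG73 there were 6 WT-TREM2/+ females and 3 Trem2+/+ females. R47H-TREM2/+ and WT-TREM2/+ mice carry human TREM2, with the Alzheimer risk variant R47H or with the common sequence, and Trem2+/+ mice carry mouse Trem2 on both alleles, so each genotype was compared with Trem2+/+ mice of its own prefix and sex. The labels used here gave no age, no mice without tau and no account of the prefixes beyond the titles. Mice within a group are numbered in deposit order, which pairs none of them.

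Glutamate acts on ion channels built from AMPA, kainate or NMDA receptor subunits, which carry fast excitation and, for NMDA receptors, the calcium entry that starts synaptic plasticity, and on metabotropic receptors, which signal through G proteins. GABA opens the chloride channels of GABA-A receptors, each built from alpha, beta and usually gamma or delta subunits, and activates GABA-B receptors, obligate partners of a ligand-binding and a signalling subunit. In the hippocampus these genes are transcribed mainly in pyramidal, granule and inhibitory neurons, with some in glia, and in bulk tissue fewer cells of a type and less RNA per cell cannot be told apart.

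Library totals ran from 13261478 to 23807390 counts, and levels are given as CPM (depth-scaled counts, with TMM factors), or as CPM per kb of exon where genes are compared with each other. Hippocampal markers were present in every library: the 8 excitatory neuron markers summed to between 3641 and 11572 CPM, the 6 dentate granule cell markers to between 78.6 and 603 CPM and the 5 CA1 markers to between 153 and 710 CPM. Mouse Trem2 was at 2.78 to 33.1 CPM. In 6 libraries, transcripts of neighbouring tissue stood apart, above 50 CPM for the pituitary hormone gene Prl or the olfactory gene Omp, or above 30 CPM for the striatal gene Adora2a: R47H-TREM2 female 5, Trem2+/+ females 1 and 3 of LG72, Trem2+/+ female 3 of LG73, and WT-TREM2 females 2 and 5. Without these 6, a single Trem2+/+ female of LG72 remains, assumed to vary like the other groups. The libraries kept are not free of neighbouring tissue, since only those 3 genes set the choice. Among them, R47H-TREM2 female 2 had 2945 CPM of the choroid plexus gene Ttr. WT-TREM2 female 3 had cerebellar granule cell markers summing to 205 CPM.

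The receptor genes together took 4045 CPM in R47H-TREM2 female 1, the lowest library, and 8352 CPM in Trem2+/+ male 2, the highest, with a median of 6057 CPM over the 24. That sum was also low in WT-TREM2 female 2, at 4223 CPM, and in R47H-TREM2 female 5, at 4349 CPM. The slope of log2 CPM on log2 exonic length, which falls when long transcripts are under-recovered, was 0.48 in WT-TREM2 female 2 and 1.01 in Trem2+/+ male 2, the lowest and highest of 24. R47H-TREM2 female 1 also had 12183 CPM of the astrocyte gene Gfap against 435 to 7370 CPM elsewhere. How far glial content and length recovery take part in the receptor levels was not tested beyond the fit with the length slope given below.

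Per kb of exon, AMPA receptor subunits made up 23.9% of the summed level of the 45 genes, GABA-A alpha subunits 20.2%, GABA-B subunits 16.7%, GABA-A beta subunits 11.1% and kainate subunits 8.14%. NMDA subunits made up 5.72%, the gamma, delta, epsilon and theta subunits of GABA-A receptors 5.41%, and rho subunits, known best from the retina, 0.0383%. The length of all annotated exons stands in for transcript length, so genes with long, rarely used exons are placed too low on this scale. Gria1, the AMPA subunit that carries activity-dependent insertion, was the highest gene at a mean of 157 CPM per kb, followed by Gabbr1, the GABA-binding subunit of GABA-B receptors, at 120, Gabra5, the alpha subunit of many extrasynaptic receptors on pyramidal cells, at 69.3, and Grik5, a high-affinity kainate subunit, at 61.8.

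Of the 45 genes, 42 passed the filter on low counts. Grm6, the retinal bipolar cell receptor, had 2 counts over all 24 libraries, Gabrr3 had 18 and Gabrr1 46. Others that passed but stayed under 0.3 CPM per kb on average were Gabrr2 at 0.285, Gabrg3 at 0.245, Grin3b at 0.218 and Gabrq at 0.0903. Gabre was lower still, at 0.0433 CPM per kb, and Gabra6 had a mean of 0.416 CPM per kb that rested on 1 library.

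**Figure D1:**
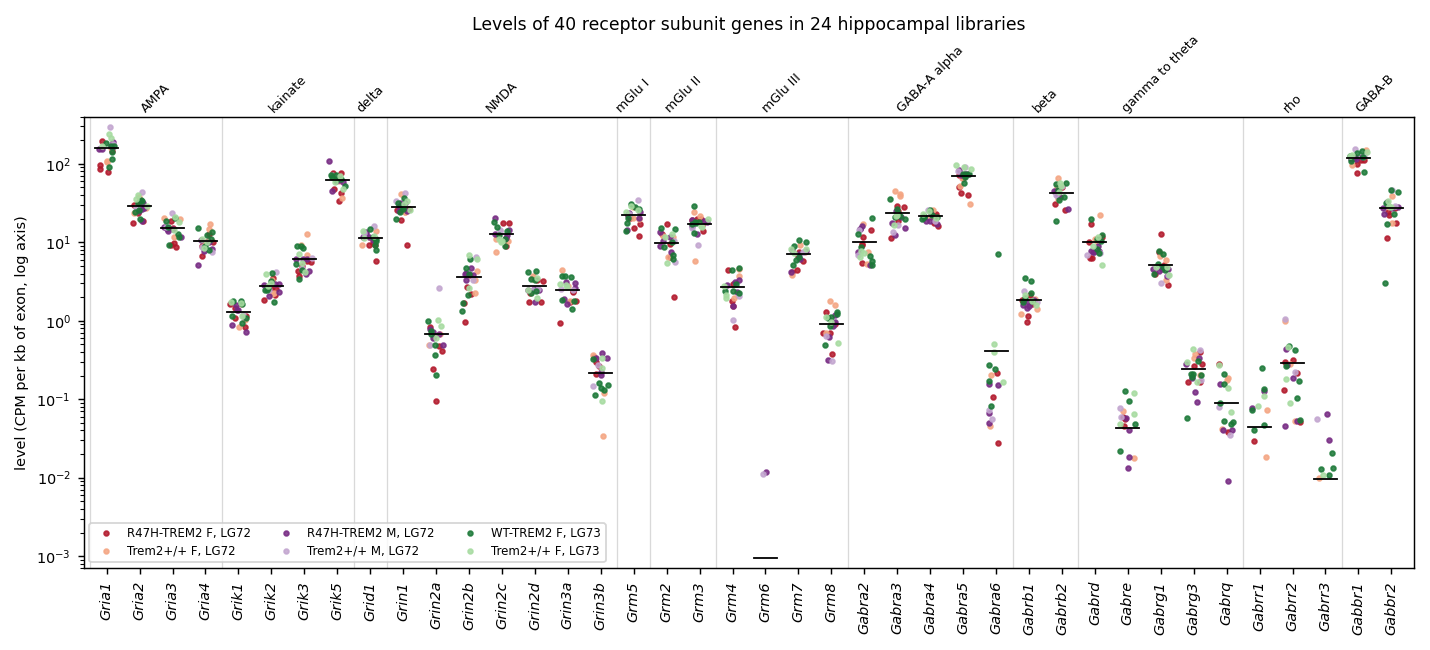
Level of 40 of the genes, in CPM per kb of exon on a log axis, with genes grouped by receptor family; each point is 1 of 24 libraries, coloured by group, and the black bar is the mean over 24. Libraries at 0 cannot be drawn on a log axis and are left out of the points. Gria1, Gabbr1, Gabra5 and Grik5 stand highest, and Gabra6 shows 1 library far above the rest.

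Among AMPA subunits, Gria1 made up 73.6% ± 4.67 (SD, n = 24) of the summed level per kb. Gria2, the subunit whose edited form keeps AMPA receptors from passing calcium, made up 13.8% ± 1.83, Gria3 7.30% ± 1.29 and Gria4 5.33% ± 2.18. The Gria2 share leans on a union of exons 15548 bases long, against 6043 bases for Gria1. In CPM, Gria1 was at 657, 951 and 638 in Trem2+/+ females of LG72 and at 512, 1172, 888, 470.2 and 578 in R47H-TREM2 females. Males had Gria1 at 1066 and 1786 with Trem2+/+ and at 996, 1032, 937, 922 and 1135 with R47H-TREM2. In LG73, Gria1 was at 1022, 1437 and 1299.6 in Trem2+/+ and at 553 (lowest), 936 (median) and 1127 (highest) in WT-TREM2 females. Trem2+/+ male 2, at 1786 CPM, was the highest of the 24 libraries and R47H-TREM2 female 4, at 470.2 CPM, the lowest.

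Among NMDA subunits, the obligatory Grin1 made up 54.7% ± 6.83 (SD, n = 24) of the level per kb and Grin2c 26.1% ± 8.07. The main forebrain partners Grin2b and Grin2a, with unions of exons of 24842 and 17933 bases, made up 6.99% ± 2.83 and 1.28% ± 0.672. In CPM, Grin1 was at 234, 234 and 397 in Trem2+/+ females of LG72 and at 90.03, 259, 253, 254 and 185 in R47H-TREM2 females. Males had Grin1 at 324 and 410.4 with Trem2+/+ and at 242, 309, 285, 239.6 and 305 with R47H-TREM2. In LG73, Grin1 was at 295, 323 and 249 in Trem2+/+ and at 195 (lowest), 265 (median) and 354 (highest) in WT-TREM2 females. R47H-TREM2 female 1 was the lowest of 24. Exons of Grin1 overlap those of Grin1os, and without the strand setting their reads cannot be told apart. Grin2a ranged from 1.72 CPM in R47H-TREM2 female 1 to 47.1 CPM in Trem2+/+ male 2.

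Kainate and delta receptors were led by Grik5 and by Grid1, a synapse-organising receptor with no known glutamate-gated current. In CPM, Grik5 was at 309, 191 and 346 in Trem2+/+ females of LG72 and at 173, 246, 221, 399 and 399 in R47H-TREM2 females. Males had Grik5 at 355 and 368 with Trem2+/+ and at 234, 311, 320.4, 560.3 and 304 with R47H-TREM2. In LG73, Grik5 was at 356, 299.7 and 243 in Trem2+/+ and at 269.8 (lowest), 342 (median) and 376 (highest) in WT-TREM2 females. In CPM, Grid1 was at 55.2, 68.5 and 82.3 in Trem2+/+ females of LG72 and at 34.8, 64.9, 58.7, 55.5 and 55.4 in R47H-TREM2 females. Males had Grid1 at 79.2 and 96.9 with Trem2+/+ and at 68.7, 80.6, 76.2, 64.5 and 68.8 with R47H-TREM2. In LG73, Grid1 was at 68.6, 83.96 and 71.6 in Trem2+/+ and at 47.4 (lowest), 63.9 (median) and 86.99 (highest) in WT-TREM2 females. Values of both genes overlapped between each genotype and its Trem2+/+ group, and Grik5 was highest in R47H-TREM2 male 4, at 560.3 CPM.

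Metabotropic receptors were led by Grm5 in group I, which couples to calcium release, by Grm3 in group II, found on astrocytes as well as on nerve terminals, and by Grm7 in group III, a presynaptic receptor. In CPM, Grm5 was at 203, 291 and 209 in Trem2+/+ females of LG72 and at 176, 229, 209, 155 and 122 in R47H-TREM2 females. Males had Grm5 at 238 and 355 with Trem2+/+ and at 210.4, 228, 252, 146 and 243 with R47H-TREM2. In LG73, Grm5 was at 249.6, 296 and 262 in Trem2+/+ and at 143 (lowest), 239 (median) and 312 (highest) in WT-TREM2 females. In CPM, Grm3 was at 17.4, 65.5 and 73.98 in Trem2+/+ females of LG72 and at 58.1, 42.01, 60.7, 59.8 and 51.1 in R47H-TREM2 females. Males had Grm3 at 45.8 and 28.2 with Trem2+/+ and at 58.6, 48.8, 55.97, 57.7 and 38.8 with R47H-TREM2. In LG73, Grm3 was at 48.95, 47.5 and 60.9 in Trem2+/+ and at 40.5 (lowest), 54.02 (median) and 89.5 (highest) in WT-TREM2 females. In CPM, Grm7 was at 22.8, 54.2 and 44.5 in Trem2+/+ females of LG72 and at 24.7, 39.5, 44.1, 33.8 and 26.1 in R47H-TREM2 females. Males had Grm7 at 44.7 and 44.7 with Trem2+/+ and at 45.7, 41.7, 47.1, 24.3 and 36.1 with R47H-TREM2. In LG73, Grm7 was at 42.5, 48.03 and 48.7 in Trem2+/+ and at 30.2 (lowest), 45.6 (median) and 62.2 (highest) in WT-TREM2 females. These values overlapped between each genotype and its Trem2+/+ group.

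Among GABA-A alpha subunits, Gabra5 made up 38.8% ± 8.25 (SD, n = 24) of the level per kb. Gabra3 made up 13.3% ± 4.71, Gabra4, the partner of delta in granule cells, 12.03% ± 1.45 and Gabra2 5.63% ± 2.45. In CPM, Gabra5 was at 157, 199 and 92.7 in Trem2+/+ females of LG72 and at 119, 213, 198, 125 and 152 in R47H-TREM2 females. Males had Gabra5 at 238 and 273 with Trem2+/+ and at 213, 221, 217, 219 and 249 with R47H-TREM2. In LG73, Gabra5 was at 254, 272 and 286 in Trem2+/+ and at 167 (lowest), 217 (median) and 222 (highest) in WT-TREM2 females. The lowest value, 92.7 CPM, and the highest, 286 CPM, were in Trem2+/+ female 3 of LG72 and Trem2+/+ female 3 of LG73, both among the 6 libraries with neighbouring tissue.

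The rho subunits were led by Gabrr2 and the GABA-B subunits by Gabbr1. In CPM, Gabrr2 was at 2.11, 0.112 and 0.595 in Trem2+/+ females of LG72 and at 0.4498, 0.108, 0.662, 0.274 and 0.635 in R47H-TREM2 females. Males had Gabrr2 at 0.471 and 2.23 with Trem2+/+ and at 0.572, 0.1096, 0.096, 0.921 and 0.393 with R47H-TREM2. In LG73, Gabrr2 was at 0.973, 0.186 and 0.376 in Trem2+/+ and at 0.114 (lowest), 0.458 (median) and 1.005 (highest) in WT-TREM2 females. Gabrr2 was under 1.01 CPM in all but 2 libraries, which were Trem2+/+ female 1 of LG72 and Trem2+/+ male 2. In CPM, Gabbr1 was at 749, 948 and 1179 in Trem2+/+ females of LG72 and at 592, 859, 932, 870.0 and 781 in R47H-TREM2 females. Males had Gabbr1 at 982 and 1184 with Trem2+/+ and at 896, 955, 937, 901 and 923 with R47H-TREM2. In LG73, Gabbr1 was at 989, 1094 and 1012 in Trem2+/+ and at 606 (lowest), 960.3 (median) and 1133 (highest) in WT-TREM2 females. Gabbr1 ranged from 592 CPM to 1183.5 CPM over the 24 libraries, and Gabbr2, its signalling partner, from 20.2 CPM in WT-TREM2 female 2 to 313 CPM in WT-TREM2 female 4.

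In R47H-TREM2 females against Trem2+/+ females of LG72, 32 of the 42 receptor genes tested were lower and 10 higher, and the median log2 fold change was -0.30 against 0.00 over all 16118 genes tested. No receptor gene passed the adjusted threshold of 0.05 in edgeR's quasi-likelihood test, and neither did any other gene (0.0% called). At an unadjusted p under 0.05 there were 4 receptor genes, all lower, which is 9.52% of 42 against 14% of all genes, so the share lay below the background. DESeq2 called 1 of them, Gabra3, among 180 genes, and limma-voom called 0. With the length slope in the fit the median moved to -0.14, with 29 lower and 13 higher. The general neuron markers moved the same way, 8 of 10 lower with a median of -0.32, with summed levels of 5846 to 9549 CPM in R47H-TREM2 and 7163 to 10196 CPM in Trem2+/+ females. Of the inhibitory neuron genes, 10 of 11 were lower (median -0.42). For other neuron lists only summed levels are given here. Excitatory neuron markers summed to a median of 6797 CPM (3641 to 8692) in R47H-TREM2 and 6734 CPM (6365 to 8341) in Trem2+/+ females. CA1 markers summed to a median of 418 CPM (153 to 479) in R47H-TREM2 and 427 CPM (372 to 568) in Trem2+/+ females. In the same order, the medians were 159 and 142 CPM for dentate granule cell markers and 158 and 123 CPM for CA3 markers. All 8 microglia genes (median 0.95) and all 6 oligodendrocyte genes (median 0.80) were higher. The part of these cell types in the receptor genes' shift was not tested.

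The genes with the smallest p were Gabra3, an alpha subunit that is strong in monoaminergic and reticular thalamic neurons, and Grik3, a low-affinity kainate subunit found on nerve terminals. Their promoters are shown because these 2 receptor genes had the smallest p in this comparison. The 250 bases before each RefSeq start (GRCm38.p6) are printed 5′ to 3′ on the gene's strand. Capitals mark the motifs searched on both strands, TATAAA and GGGCGG, the latter the GC box.
Gabra3, chrX:72656808-72657057, minus strand: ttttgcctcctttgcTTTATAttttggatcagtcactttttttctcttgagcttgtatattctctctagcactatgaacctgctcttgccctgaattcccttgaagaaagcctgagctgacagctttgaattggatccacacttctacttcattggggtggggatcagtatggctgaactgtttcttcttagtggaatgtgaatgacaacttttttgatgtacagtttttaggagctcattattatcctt
Grik3, chr4:125490446-125490695, plus strand: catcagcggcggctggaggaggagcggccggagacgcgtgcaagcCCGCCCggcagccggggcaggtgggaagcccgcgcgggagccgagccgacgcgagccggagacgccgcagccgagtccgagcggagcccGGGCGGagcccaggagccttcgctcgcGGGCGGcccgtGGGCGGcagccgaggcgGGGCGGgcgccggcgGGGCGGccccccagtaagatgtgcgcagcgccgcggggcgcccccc
The Gabra3 window was 39.2% G or C and held 1 TATAAA match, on the other strand. The Grik3 window was 82% G or C and held 6 GC boxes. Over 32851 RefSeq promoters of 250 bases the median was 52.4% G or C, TATAAA was found in 12.4% and GGGCGG in 32.7%. Among the 30 receptor genes with an entry, 3 held TATAAA and 16 held GGGCGG. The NRF1 core, searched as GCGCANGCG, was in 2 of the 30, Gabrb1 and Gria4, and in 5.16% of all promoters. A receptor gene was counted where any of its promoter entries held the motif. The shares over all promoters are per entry, so these counts and shares are not in like units.

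Gabra3 (ENSMUSG00000031343.13) lies at chrX:72432681-72656848 on the minus strand (GRCm38), with 3924 bases of exon. In CPM, Gabra3 was at 152, 176 and 161 in Trem2+/+ females of LG72 and at 112, 44.5, 97.4, 110.4 and 73.4 in R47H-TREM2 females. Males had Gabra3 at 65.99 and 53.2 with Trem2+/+ and at 69.7, 83.5, 99.6, 49.2 and 59.4 with R47H-TREM2. In LG73, Gabra3 was at 85.8, 65.3 and 87.9 in Trem2+/+ and at 77.6 (lowest), 89.3 (median) and 139.8 (highest) in WT-TREM2 females. All 3 Trem2+/+ females of LG72 were above every R47H-TREM2 female, and above all other libraries of the study. The log2 fold change was -0.90 ± 0.25 (SE), with an edgeR p of 0.00143 and an adjusted p of 0.177. DESeq2 gave -0.91 with an adjusted p of 0.0448, and over the edgeR and limma-voom alternatives and with each library left out the call was not made.

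Grik3 (ENSMUSG00000001985.9) lies at chr4:125490700-125714173 on the plus strand, with 8973 bases of exon. In CPM, Grik3 was at 62.5, 81.8 and 115 in Trem2+/+ females of LG72 and at 44.1, 39.1, 51.5, 50.5 and 33.4 in R47H-TREM2 females. Males had Grik3 at 56.5 and 42.4 with Trem2+/+ and at 54.5, 55.1, 55.3, 35.4 and 39.2 with R47H-TREM2. In LG73, Grik3 was at 48.9, 63.9 and 37.9 in Trem2+/+ and at 30.8 (lowest), 60.9 (median) and 79.8 (highest) in WT-TREM2 females. Here too the 3 Trem2+/+ females of LG72 lay above the 5 R47H-TREM2 females, whose highest value was 51.5 CPM against 62.5 CPM. The log2 fold change was -0.98 ± 0.27 (SE), with an edgeR p of 0.00144 and an adjusted p of 0.177. These were the 2 receptor genes whose groups did not overlap in this comparison, both lower, 4.76% of 42 against 2.41% of all genes in that direction. In the higher direction the share was 0.0% of the 42 against 3.59% of all genes. Of the 3 controls, Trem2+/+ female 1 carried olfactory and Trem2+/+ female 3 striatal transcripts. Without the 6 libraries named above, which leaves only Trem2+/+ female 2 as control, the fold changes were -0.96 for Gabra3 and -0.82 for Grik3. Thalamic markers summed to a median of 180 CPM (114 to 219) in these controls and 139 CPM (99.2 to 180) in R47H-TREM2 females. Cortical markers summed to a median of 272 CPM (177 to 418) in the controls and 220 CPM (150 to 281) in R47H-TREM2 females. Their part in the Gabra3 and Grik3 values was not tested.

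The next by p were Gria4, an AMPA subunit of interneurons, and Grin3a, an NMDA subunit that lowers calcium flow. In CPM, Gria4 was at 64.7, 107 and 92.9 in Trem2+/+ females of LG72 and at 63.8, 42.4, 64.8, 80.3 and 56.7 in R47H-TREM2 females. Males had Gria4 at 55.5 and 47.8 with Trem2+/+ and at 62.8, 52.5, 67.7, 32.1 and 49.002 with R47H-TREM2. In LG73, Gria4 was at 64.05, 53.2 and 68.6 in Trem2+/+ and at 50.2 (lowest), 74.3 (median) and 96.99 (highest) in WT-TREM2 females. In CPM, Grin3a was at 21.9, 53.7 and 34.04 in Trem2+/+ females of LG72 and at 21.3, 21.8, 28.8, 29.5 and 11.4 in R47H-TREM2 females. Males had Grin3a at 29.9 and 31.2 with Trem2+/+ and at 32.4, 37.3, 38.7, 19.9 and 23.3 with R47H-TREM2. In LG73, Grin3a was at 35.7, 34.8 and 32.6 in Trem2+/+ and at 17.5 (lowest), 33.1 (median) and 46.2 (highest) in WT-TREM2 females. Both overlapped between R47H-TREM2 and Trem2+/+ females. The edgeR log2 fold changes with their SE were Gria4 -0.52 ± 0.24 (adjusted p = 0.33) and Grin3a -0.70 ± 0.33 (adjusted p = 0.345). Grin3a was at -0.40 with the length slope in the fit, at -1.09 without the 6 libraries with neighbouring tissue and at -0.99 to -0.35 with 1 library left out. The other 4 of the 8 smallest p values belonged to Grin2c, Grm8, Gabra4 and Gria3. Grin2c, an NMDA subunit that astrocytes also carry, was the one of these that was higher, at 0.49 ± 0.24 (edgeR adjusted p = 0.36). Astrocyte markers were higher in 6 of 6. Grm3, also found on astrocytes, averaged 54.3 CPM (42.0 to 60.7) in R47H-TREM2 females. In Trem2+/+ females it averaged 52.3 CPM, from values of 17.4, 65.5 and 73.98 CPM, the lowest in Trem2+/+ female 1. The part of astrocytes in the Grin2c value was not tested. Grm8, a presynaptic receptor, was at -0.76 ± 0.40 (edgeR adjusted p = 0.394). Gabra4 was at -0.28 ± 0.15 and Gria3 at -0.49 ± 0.26, with edgeR adjusted p values of 0.404 and 0.406. Gria3 was at -0.24 with the length slope in the fit, and Gabra4 at -0.44 without the 6 libraries.

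**Figure D2:**
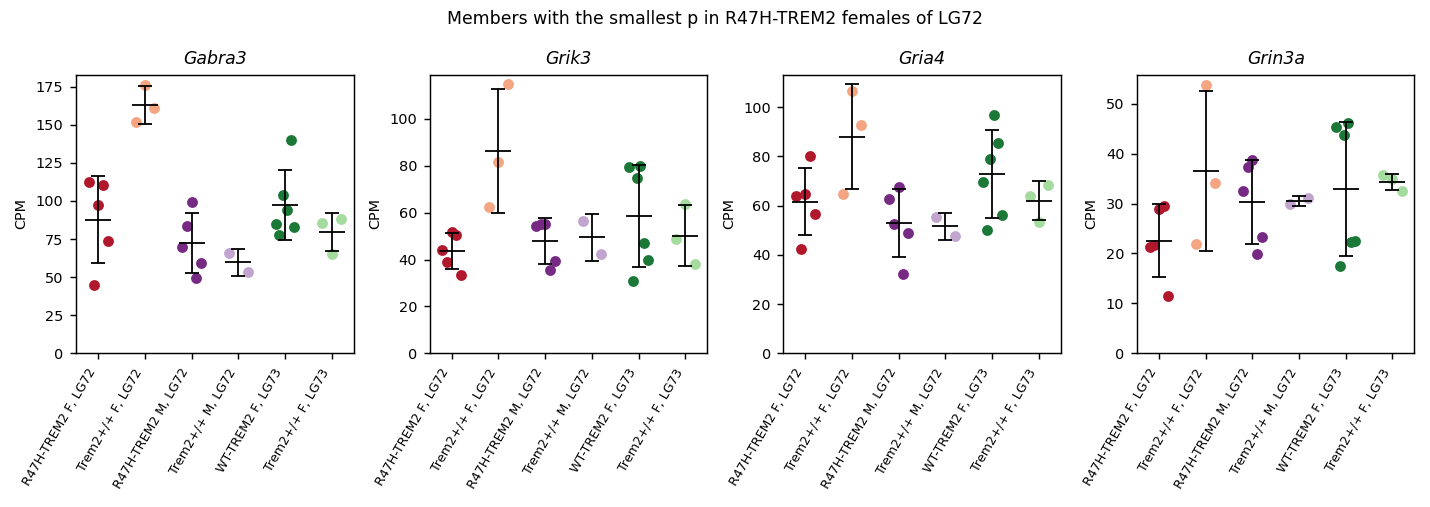
CPM of the 4 receptor genes with the smallest p in R47H-TREM2 against Trem2+/+ females of LG72; points are libraries by group and the black bar is the mean ± SD. The 3 Trem2+/+ females of LG72 lie at 152 to 176 CPM for Gabra3, above every other library.

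By family, all 4 AMPA subunits were lower in R47H-TREM2 females (median log2 fold change -0.38), as were 5 of 7 NMDA subunits (median -0.47), both delta receptors, both group I receptors and all 3 group III receptors tested. Kainate subunits had 2 higher and 2 lower, with a median of 0.00. Of GABA receptor genes, 13 of 18 were lower (median -0.27), among them both GABA-B subunits and 4 of 6 alpha subunits. Of glutamate receptor genes, 19 of 24 were lower (median -0.36). In those 2 classes 1 and 3 genes had an unadjusted edgeR p under 0.05, and 0 passed after adjustment.

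In R47H-TREM2 males against Trem2+/+ males, 29 of 42 genes were lower and 13 higher, and the median log2 fold change was -0.21 against 0.03 over all genes. With the length slope in the fit the median was -0.04, with 22 lower and 20 higher. No gene was called (0.0%) by edgeR. 1 receptor gene, Grin2a, had an unadjusted p under 0.05, 2.38% against 6.17% of all genes, and DESeq2 and limma-voom called 0 receptor genes. In CPM, Grin2a was at 11.2, 12.1 and 8.71 in Trem2+/+ females of LG72 and at 1.72, 14.8, 8.47, 4.32 and 7.34 in R47H-TREM2 females. Males had Grin2a at 8.81 and 47.1 with Trem2+/+ and at 8.71, 12.3, 12.8, 10.7 and 13.9 with R47H-TREM2. In LG73, Grin2a was at 10.7, 15.5 and 18.2 in Trem2+/+ and at 3.596 (lowest), 10.5 (median) and 17.998 (highest) in WT-TREM2 females. Trem2+/+ male 2 was the highest of all libraries and Trem2+/+ male 1 lay among the R47H-TREM2 males. The log2 fold change was -1.25 ± 0.54 (edgeR adjusted p = 0.779), and without Trem2+/+ male 2 it was 0.41. Without that library the median over the genes was -0.04, with 24 lower and 19 higher; the remaining male control was then assumed to vary like the other groups.

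Next in males were Gabrr2 at -1.68 ± 0.93, Gria2 at -0.47 ± 0.27, Grm5 at -0.46 ± 0.27, Gria1 at -0.51 ± 0.30, Gria3 at -0.47 ± 0.30 and Grm4, a presynaptic receptor, at 0.75 ± 0.47 (log2 fold change ± SE). Their adjusted p values by edgeR were from 0.779 to 0.782. Gria1 was at -0.14, Gria2 at -0.14, Gria3 at -0.08, Grm5 at -0.13, Grin2a at -0.44 and Gabrr2 at -2.60 with the length slope in the fit. Without Trem2+/+ male 2, Gria1 moved to -0.09, Gria2 to -0.11, Gria3 to -0.15, Grm5 to -0.14, Gabrr2 to -0.19 and Grm4 to 0.33. Groups did not overlap for 4 genes that were lower, Gabbr1, Gabre, Gria3 and Grin1, 9.52% against 4.95% of all genes. For Gria3 the highest R47H-TREM2 male was at 155.97 CPM and the lowest of the 2 controls at 156.004 CPM. For Gabre these were 0.274 and 0.283 CPM. Gabrd, the delta subunit of tonic inhibition, was the 1 gene that was higher without overlap, 2.38% against 6.38%. Its lowest R47H-TREM2 value was 21.4 CPM and its highest control value 20.9 CPM. By family, 3 of 4 AMPA, 5 of 7 NMDA and 3 of 3 beta subunits were lower, and both group II receptors were higher. The choroid plexus markers summed to a median of 134 CPM in Trem2+/+ males and 869 CPM in R47H-TREM2 males (92.0 to 2455), and the microglia markers to 907 and 634 CPM. Their part in these values was not tested.

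In WT-TREM2 against Trem2+/+ females of LG73, 25 of 42 genes were lower and 17 higher, and the median log2 fold change was -0.10 against 0.04 over all genes. The median was -0.02 with the length slope in the fit (22 lower, 20 higher), 0.00 without the 6 libraries with neighbouring tissue (22 lower, 21 higher) and -0.05 to -0.22 with 1 library left out. EdgeR called no gene (0.0%), DESeq2 and limma-voom called 0 receptor genes, and 1 receptor gene had an unadjusted edgeR p under 0.05, 2.38% against 3.91% of all genes. Gria1 was at -0.51 ± 0.26 and Gabra5 at -0.38 ± 0.19, and Grin2b at -0.66 ± 0.41. Gabrb1 was at 0.39 ± 0.25 and Grin2c at 0.35 ± 0.23. For these 5 the edgeR adjusted p was 0.86. With the length slope in the fit Gria1 was at -0.28, Grin2b at -0.30 and Grin2c at 0.21, and without the 6 libraries they were at -0.30, -0.18 and 0.23.

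For 2 receptor genes, Gabra5 among them, all WT-TREM2 values lay below those of the 3 controls, 4.76% against 1.45% of all genes in that direction. In the higher direction the share was 0.0% of the 42 against 1.37% of all genes. For Gabra5, the highest WT-TREM2 value was 222 CPM and the lowest control 254 CPM. By family, 3 of 4 AMPA, 5 of 7 NMDA and 4 of 6 gamma to theta subunits were lower, and both group II receptors were higher. Choroid plexus markers were lower in 5 of 5 in this comparison (median -2.24) and striatal markers higher in 7 of 7 tested (median 1.64), and their part was not tested.

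Gabra6, the alpha subunit of cerebellar granule cells, was at 1.87 ± 1.32 in this comparison (edgeR adjusted p = 0.86), on the strength of 1 library. WT-TREM2 female 3 had 17.4 CPM and the other 5 had 0 to 0.681 CPM. That library also had 35.8 CPM of Cbln3, a cerebellar granule cell gene, against 2.92 CPM or less in every other library, and the summed cerebellar markers were highest there, at 205 CPM against 62.3 to 148 CPM. Without it the Gabra6 log2 fold change was -1.21.

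**Figure D3:**
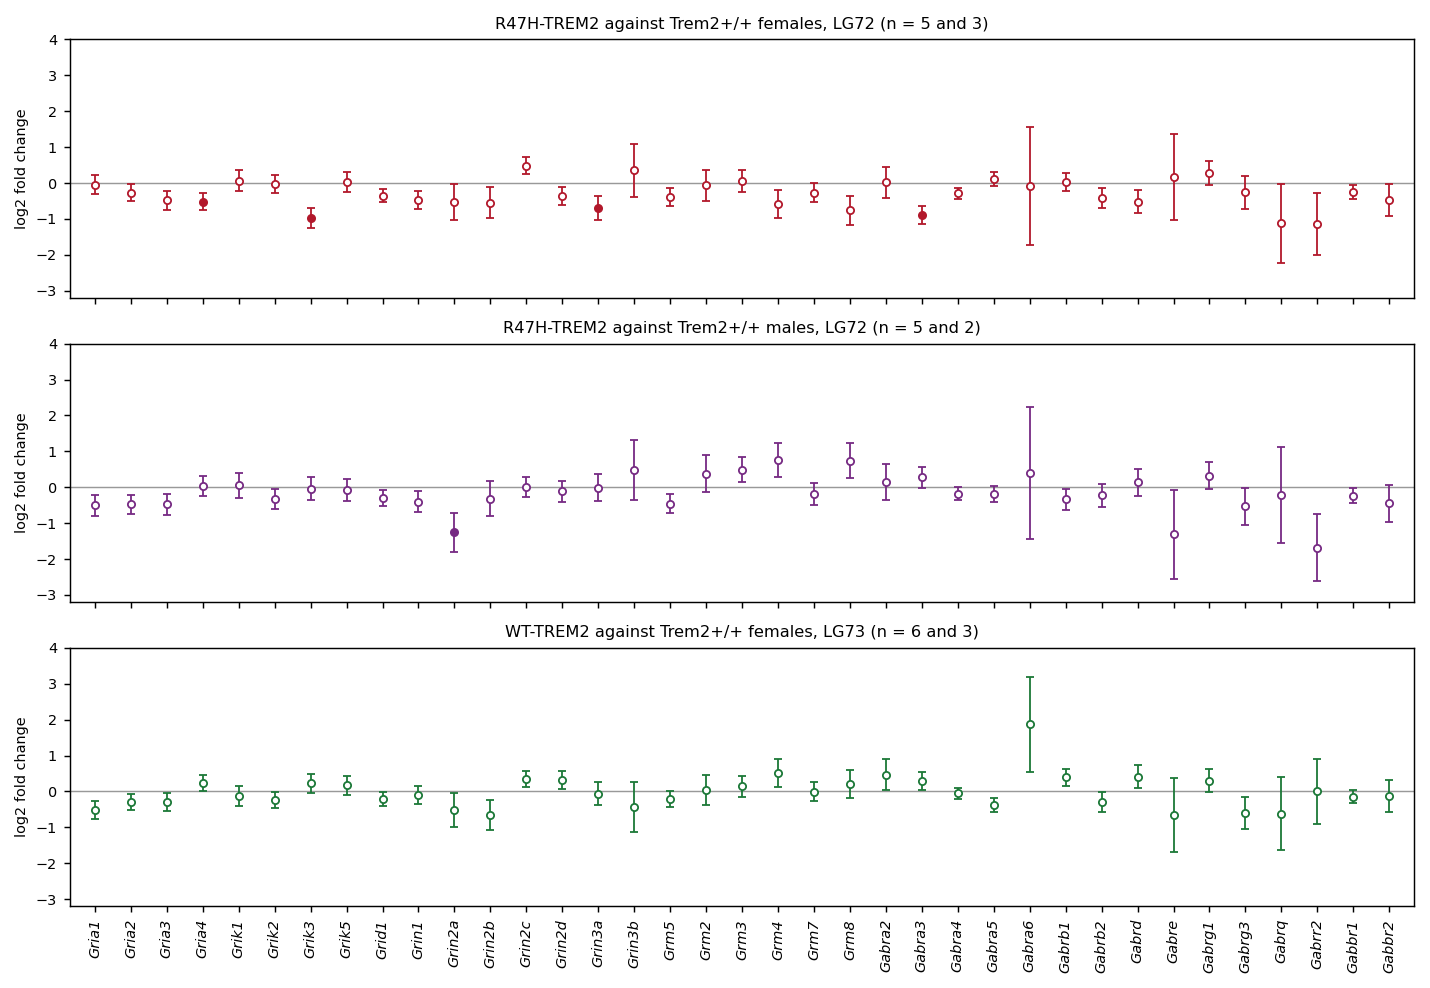
Log2 fold change ± SE (edgeR) of 37 receptor genes, in R47H-TREM2 females, R47H-TREM2 males and WT-TREM2 females, each against Trem2+/+ mice of the same prefix and sex. Filled points have an unadjusted p under 0.05, and no gene passed after adjustment; the widest bars belong to Gabra6, Gabre and Gabrq, which had few counts.

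Whether the R47H effect differed from the WT effect was tested as a difference between the 2 female comparisons. No gene was called by edgeR (0.0%), and 3 receptor genes had an unadjusted p under 0.05, all with a lower R47H effect, 7.14% against 9.05% of all genes; DESeq2 and limma-voom called 0 receptor genes. They were Gabra3 at -1.18 ± 0.36, Grik3 at -1.20 ± 0.39 and Gria4 at -0.75 ± 0.33, with edgeR adjusted p values of 0.342, 0.358 and 0.503. Gabrd at -0.94 ± 0.45, Grm4 at -1.09 ± 0.55, Grin2d at -0.68 ± 0.36, Gabra5 at 0.49 ± 0.28 and Grm8 at -0.97 ± 0.57 followed, with edgeR adjusted p values of 0.553 to 0.628. Gabrd was highest in Trem2+/+ female 3 of LG72, at 64.3 CPM, and its difference in effect was 0.05 without the 6 libraries with neighbouring tissue, where Grin2d was at -0.20, Gabra5 at 0.08 and Gria4 at -1.12.

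The 3 Trem2+/+ females of LG72 enter the R47H comparison in females, its differences from the WT effect and from the male effect, and the comparison given here, so the 4 share these libraries. The Trem2+/+ females of both prefixes were set against each other directly. Of 16118 genes edgeR called 0 (0.0%), and 5 receptor genes had an unadjusted p under 0.05, 11.9% against 4.29% of all genes. Gabra5 was 0.86 ± 0.23 in LG73 relative to LG72 and Gria1 0.74 ± 0.30, while Gabra3 was -1.03 ± 0.29, Grik3 -0.78 ± 0.31 and Gabrd -0.77 ± 0.37. The edgeR adjusted p values were 0.774 for Gabra5 and Gabra3 and 0.998 for the other 3, and DESeq2 and limma-voom called 0 receptor genes. Gria4 at -0.51 ± 0.27 and Grm8 at -0.63 ± 0.46 followed, each with an adjusted p of 0.998 by edgeR. Without the 6 libraries, which include 2 of the LG72 and 1 of the LG73 mice compared, Gabra5 was at 0.42, Gria1 at 0.39, Gabra3 at -1.21, Grik3 at -0.52, Gabrd at -0.09 and Gria4 at -0.85. For Gabra3, the R47H-TREM2 females spanned 44.5 to 112 CPM, the Trem2+/+ females of LG73 65.3 to 87.9 CPM and those of LG72 152 to 176 CPM. Prefix and any difference in breeding or handling cannot be told apart here.

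Whether the R47H effect differed between the sexes was tested within LG72. EdgeR called no gene (0.0%), with DESeq2 and limma-voom at 0 receptor genes, and 4 receptor genes had an unadjusted p under 0.05, all with a lower effect in females, 9.52% against 5.34% of all genes. They were Gabra3 at -1.17 ± 0.39, Grm8 at -1.50 ± 0.64, Grik3 at -0.93 ± 0.43 and Grm4 at -1.33 ± 0.61, with edgeR adjusted p values from 0.696 to 0.903. Gria4 at -0.55 ± 0.37, Grin2c at 0.48 ± 0.36, Grin3a at -0.69 ± 0.51 and Gabrd at -0.67 ± 0.50 followed, each with an edgeR adjusted p of 0.9999. Without the 6 libraries with neighbouring tissue Grin3a was at -1.07 and Gabrd at -0.25. Male Trem2+/+ libraries were low in Gabra3, at 66.0 and 53.2 CPM, beside 152 to 176 CPM in the females. Grm4 and Grm8 were lowest among controls in Trem2+/+ male 2, at 6.14 and 3.07 CPM.

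R47H-TREM2 females were then compared with R47H-TREM2 males. EdgeR called 5 of 16118 genes (0.031%), none of them a receptor gene, and DESeq2 and limma-voom also called 0 receptor genes. 3 receptor genes had an unadjusted edgeR p under 0.05, all lower in females, 7.14% against 7.04% of all genes. Gabra5 was at -0.47 ± 0.18, with the 5 females at 119 to 213 CPM and the 5 males at 213 to 249 CPM, Grid1 at -0.41 ± 0.17 and Grin2b at -0.81 ± 0.37. Gria1 at -0.47 ± 0.23, Gabrg1 at 0.57 ± 0.29, Grin1 at -0.41 ± 0.23, Grin2a at -0.67 ± 0.44 and Grin3a at -0.43 ± 0.29 followed, and the edgeR adjusted p of the 8 ran from 0.684 to 0.713. Gabrg1, a gamma subunit that astrocytes also carry, was at 102 CPM in R47H-TREM2 female 1, the library highest in Gfap, and at 22.2 to 60.3 CPM in the other 23. The part of astrocytes in the Gabrg1 value was not tested.

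Ratios of 2 subunits within a library do not depend on library scaling, and they were compared in 4 comparisons by exact permutation. Of the 24 tests none had an adjusted p under 0.05, and the smallest p that the group sizes allow is 0.0952 for the male comparison. The ratio of Gria2 to Gria1 was higher in WT-TREM2 than in Trem2+/+ females by 0.22 on the log2 scale (-0.98 ± 0.11, n = 6, against -1.21 ± 0.03, n = 3; exact p = 0.0238, the smallest possible; adjusted p = 0.286), with no overlap between the groups. It was also higher in R47H-TREM2 females than males by 0.45 (-0.88 ± 0.30 against -1.33 ± 0.20, n = 5 each; exact p = 0.0238; adjusted p = 0.286). For R47H-TREM2 against Trem2+/+ mice that difference was -0.17 in females and 0.01 in males. The ratio of Grin2a to Grin2b, which rises as forebrain synapses mature, differed by -0.21 in R47H-TREM2 females, -0.57 in R47H-TREM2 males and 0.10 in WT-TREM2 females, within the spread of each. The ratio of Gabbr2 to Gabbr1 had an SD of 1.16 on the log2 scale among WT-TREM2 females, set by WT-TREM2 female 2 at -4.91.

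Several subunit genes that share a receptor varied together between libraries. Over 24 libraries, with group means removed, log2 CPM of Gria1 and Gria2 correlated at r = 0.88 (rho = 0.88, permutation p = 2.0e-05, adjusted p = 0.00024 over 12 pairs). Gabbr1 and Gabbr2 correlated at r = 0.88 (rho = 0.89, permutation p = 0.00013, adjusted p = 0.00052). With the 2 libraries farthest from the median on the first gene left out, r was 0.92 and 0.80. With the length slope regressed out, r was 0.66 and 0.75. The pairs were chosen with earlier results known, and the libraries share composition and length recovery, so these are joint variation between libraries.

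Grin2a and Grin2b correlated at r = 0.77 (rho = 0.79, permutation p = 0.00041, adjusted p = 0.00123, and r = 0.71 without the 2 farthest). With the length slope regressed out, r of Grin2a and Grin2b was 0.58 (adjusted permutation p = 0.0325). Grin1 and Grin2b correlated at r = 0.62 (rho = 0.62, permutation p = 0.00456, adjusted p = 0.00782), and without R47H-TREM2 female 1 and Trem2+/+ male 2 that fell to r = 0.49 with an adjusted p of 0.0929. It was 0.75 with the length slope regressed out (adjusted p = 0.0107) and 0.65 without the 6 libraries with neighbouring tissue (adjusted p = 0.0654). Kainate subunits Grik2 and Grik5, which assemble together, went in opposite directions, at r = -0.58 (rho = -0.61, permutation p = 0.00213, adjusted p = 0.00511; r = -0.62 without the 2 farthest). With the length slope regressed out that was -0.45 with an adjusted p of 0.141, and Grik2 has 13246 bases of exon against 5168 for Grik5.

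**Figure D4:**
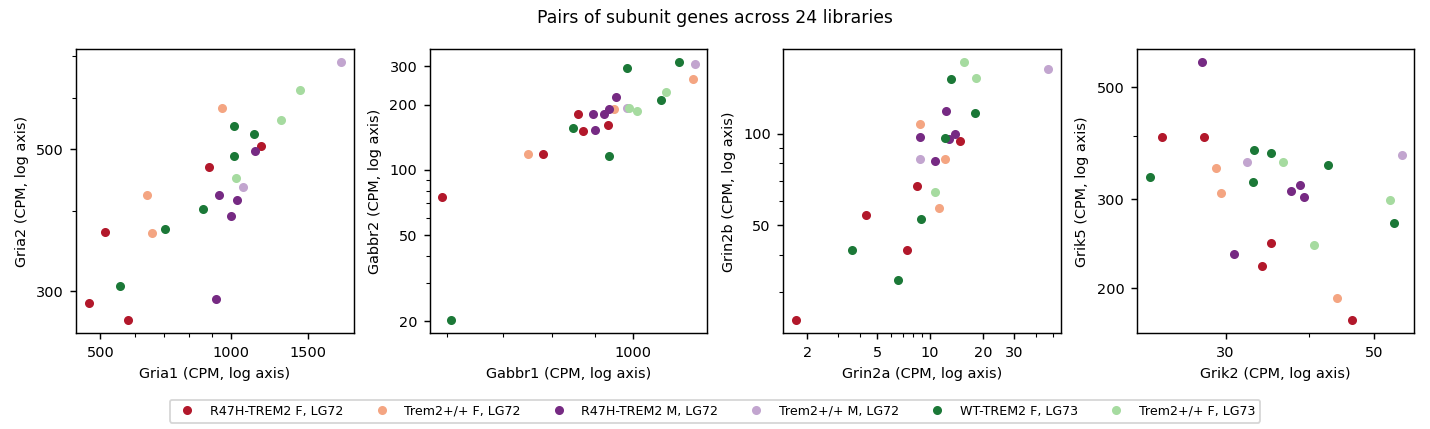
CPM of 4 pairs of subunit genes in 24 libraries on log axes, coloured by group. Gria1 with Gria2, Gabbr1 with Gabbr2 and Grin2a with Grin2b rise together, with WT-TREM2 female 2 alone at 20.2 CPM of Gabbr2, and Grik2 with Grik5 run in opposite directions.

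GABA-A subunit genes lie in clusters (GRCm38 positions). On chromosome 5, Gabrg1, Gabra2, Gabra4 and Gabrb1 span 1.40 Mb, and neither Gabra2 with Gabra4 (r = -0.07, rho = -0.10, permutation p = 0.772, adjusted p = 0.772; r = -0.15 without the 2 farthest) nor Gabra4 with Gabrb1 (r = -0.24, rho = -0.21, permutation p = 0.324, adjusted p = 0.354; r = -0.25) had a p under the threshold. Gabra4 and Gabrb1 run head to head and their exons overlap by 196 bases, at chr5:71658113-71658308, so reads there cannot be told apart without strand.

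Gabra4 and Gabrd, which form the tonic receptors of granule cells and lie on chromosomes 5 and 4, correlated at r = 0.29 (rho = 0.34, permutation p = 0.211, adjusted p = 0.253; r = 0.23). Gabra3 lies on chromosome X between Gabre and Gabrq, within 0.587 Mb, and both neighbours had at most 1.499 CPM in every library.

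Partner genes of the receptors were counted the same way, from lists of 20 AMPA and kainate auxiliary proteins, 20 glutamate receptor scaffolds, 15 GABA receptor partners and 14 genes of transmitter synthesis and transport. In R47H-TREM2 females 17 of 20 auxiliary genes were lower (median log2 fold change -0.23), 13 of 20 scaffolds (-0.10), 11 of 15 GABA receptor partners (-0.23) and 9 of 14 synthesis and transport genes (-0.26). The smallest p values of the first 3 lists belonged to Nptx2, a pentraxin that gathers AMPA receptors, at -1.13 ± 0.45, Homer1, at -0.58 ± 0.26, and Lhfpl4, which holds GABA-A receptors at synapses, at -0.49 ± 0.18, with edgeR adjusted p values of 0.281, 0.319 and 0.254. In R47H-TREM2 males 14, 12, 10 and 12 of these lists' genes were lower, with Shisa6, Dlgap2 and Shisa7 leading the first 3 at -0.97 ± 0.43, -0.63 ± 0.30 and -0.81 ± 0.33 (edgeR adjusted p = 0.779 for each). In WT-TREM2 females 8, 7, 10 and 8 were lower, led by Shisa6, Dlg3, Kctd8 and Slc17a8 at -0.55 ± 0.37, -0.45 ± 0.24, 0.60 ± 0.32 and -0.52 ± 0.32, each with an edgeR adjusted p of 0.86. No gene of the 4 lists passed after adjustment in these 3 comparisons.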

How the data were processed

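The authors deposited read counts per gene symbol, used as given; RNA was enriched with oligo(dT) beads, per the labels' protocols. The build was GRCm38, per the submitters' processing notes. Aligner, counter, annotation and strandedness were not given in the sources used here. Columns were matched to 24 titles, and 18 columns that matched no sample were not used. Results for some genes of these families and lists are not reported here; counts over a list include them. The labels do not say how mice were housed or sampled, so p-values measure variation between libraries.

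After filterByExpr (16118 genes) and TMM scaling, edgeR 4.0.16 (R 4.3.3) fitted 6 group means by quasi-likelihood, with Benjamini-Hochberg adjustment over all genes tested and calls at an adjusted p under 0.05. Alternatives were DESeq2 1.42.0, limma-voom 3.58.1 with sample weights, other scaling factors, no filter, the compared groups alone, the length slope as covariate, leaving out the 6 libraries with neighbouring tissue, and leaving out each library. Chi-square per degree of freedom between libraries of a group was at least 11.1, so none repeats another. Exon lengths came from GENCODE (GRCm38; 95.3% of tested genes) and promoters from RefSeq. Ratios had 0.5 added to each count, and correlations used 100000 permutations within groups. Named genes are those reported among the 8 smallest p values per comparison and the highest-level gene of each family; single-library genes were chosen after their values were seen. The members, lists and pairs were chosen with earlier results of these data known.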

Additional observations from a re-analysis of the deposited data

Results flagged for a closer look

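Over 37 receptor genes in the 3 groups of 5 or 6 libraries, 10 sets held a library far from the rest of its group by the gap between its value and the next, relative to the range. Chance flags about 1 in 20 such sets.

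In R47H-TREM2 males, Gabra5 was highest in R47H-TREM2 male 5 at 249 CPM, against 213 to 221 CPM in the others of its group. Gabrd was highest in R47H-TREM2 male 4 at 25.7 CPM, against 21.4 to 22.2 CPM in the others of its group. Gabrq was highest in R47H-TREM2 male 1 at 0.827 CPM, against 0 to 0.219 CPM in the others of its group. Grik5 was highest in R47H-TREM2 male 4 at 560.3 CPM, against 234 to 320.4 CPM in the others of its group. Grin2d was lowest in R47H-TREM2 male 1 at 11.4 CPM, against 16.4 to 16.9 CPM in the others of its group.

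In R47H-TREM2 females, Gabrq was highest in R47H-TREM2 female 1 at 1.499 CPM, against 0 to 0.206 CPM in the others of its group.

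In WT-TREM2 females, Gabra5 was lowest in WT-TREM2 female 1 at 167 CPM, against 202 to 222 CPM in the others of its group. Gabra6 was highest in WT-TREM2 female 3 at 17.4 CPM, against 0 to 0.681 CPM in the others of its group. Grin3b was highest in WT-TREM2 female 1 at 1.08 CPM, against 0.3696 to 0.529 CPM in the others of its group. Grm3 was highest in WT-TREM2 female 5 at 89.5 CPM, against 40.5 to 55.5 CPM in the others of its group. For Gabra6 the same library also had the cerebellar gene Cbln3 at 35.8 CPM.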

How the results depend on the processing

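Of the alternative values for fold changes of named genes, 800 kept their direction and side of the threshold, 4 turned and 1 passed the threshold, and of the counts of called genes 134 kept within 1.5 times and 1 did not. Of the ratio differences 111 kept their direction and 15 turned. Of the pair correlations 20 kept their side of the threshold, 3 lost it and 1 turned. DESeq2 called 1 receptor gene, Gabra3, in R47H-TREM2 females, where edgeR called 0. Limma-voom turned Gabra6 in WT-TREM2 females to -0.15, and leaving out 1 library moved it from -1.21 to 2.21. Leaving out 1 library moved Grin2a in R47H-TREM2 males from -2.001 to 0.41. Without the 6 libraries with neighbouring tissue, Gabrd differed by 0.047 between the R47H and WT contrasts, and the ratio difference was 0.213 for Gabbr2 to Gabbr1 in WT-TREM2 females. With the length slope regressed out, r of Gabra2 and Gabra4 was 0.087. The cause of these changes was not tested.

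Ratio differences that crossed 0 when 1 library was left out were as follows. Grin2a to Grin2b ran from -0.562 to 0.081 in R47H-TREM2 females, from -1.29 to 0.144 in R47H-TREM2 males, from -0.112 to 0.330 in WT-TREM2 females and from -0.189 to 0.136 between R47H-TREM2 females and males. Gria2 to Gria1 ran from -0.041 to 0.090 and Gabbr2 to Gabbr1 from -0.386 to 0.013 in R47H-TREM2 males, and Gabbr2 to Gabbr1 from -0.564 to 0.069 in WT-TREM2 females.

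In R47H-TREM2 females the number of receptor genes with an unadjusted p under 0.05 ran from 2 to 15 when 1 library was left out, 15 without Trem2+/+ female 1. The share of all genes at that threshold was counted only with all libraries in, at 14%. These counts therefore cannot be set against a background, and whether a change was particular to the receptor genes cannot be read from them. EdgeR called no receptor gene in any of these fits. No paired analysis was possible because no groups compared with each other share a number in their titles. Genes under about 1 CPM, such as Gabra6, Gabre and Gabrq, are limited by depth.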
